A study of Mus musculus with 2 samples.

Results

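The genes described here encode 38 enzymes of nucleotide synthesis and one-carbon metabolism, listed by their place in the dNTP, purine, pyrimidine, serine and folate pathways and not by a limit on their measured values. Of these, 37 were represented on the array by a probe set with exactly 1 gene symbol, out of 19938 genes so represented in all, and each gene was read from its probe set of highest mean. *Impdh2* was not analysed here, since the probe annotation used names no probe set for it. The values come from 2 arrays of RNA from sorted live CD3+CD4+ T cells of the pancreatic lymph nodes (PLN) of BDC mice, which are NOD mice with a transgenic T cell receptor specific for an antigen of β cells. One array is from mice given nondepleting (ND) αCD4 (clone YTS177) and the other from mice that received isotype control Ab (clone 2A3), both 48 hours after in vivo treatment of mice aged 8 weeks, with a labelled amount of 1 mg. The sample labels place the age and the treatment under each other's headings and give the BDC clone a number that differs from the methods. According to the methods, PLN of 3 mice were pooled for the sort, so each array is 1 pool, no difference below has a replicate check, and no test was run.

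The deposited values were read as log2 signals. They had a median of 8.15 in both arrays, and a gene was taken as detected when either array gave a signal above the detection level, set at the 95th percentile of probe sets for olfactory and vomeronasal receptors, genes that T cells are not known to use. This level was 7.56 in the ND αCD4 array and 7.64 in the isotype control array. By this rule 13222 genes were detected, and all 37 enzyme genes exceeded the level in both arrays. Of 12 CD4 T cell markers, 10 were measured and detected, with a mean signal of 12.87 in the ND αCD4 array and 12.88 in the isotype control array, and *Cd4* itself was at 13.48 in the ND αCD4 array and 13.38 in the isotype control array. The CD8 T cell markers differed between the pools, with *Cd8a* at 10.39 and *Cd8b1* at 11.83 in the ND αCD4 array, against 9.67 and 11.38 in the isotype control array. Levels of different genes are not compared, because each has its own probes.

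Cells make deoxynucleotides by reducing ribonucleotides, in a reaction carried out by ribonucleotide reductase, and they make thymidylate from deoxyuridylate with a one-carbon unit carried by folate. Purine rings are built step by step up to inosine monophosphate (IMP), which is then turned into AMP or GMP, whereas the pyrimidine ring is completed first and attached to ribose phosphate afterwards. Serine hydroxymethyltransferases draw one-carbon units from serine, which cells take up or make from a glycolytic intermediate. Dividing T cells are known to use these pathways heavily, and several of the enzymes are made mainly in S phase.

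After ND αCD4, these enzyme genes were lower as a group. Of the 37, 29 had a log2 ratio (ND αCD4 minus isotype control) below 0 and 8 above 0, or 78.4% below 0 against 52.7% of all detected genes, and the median log2 ratio was -0.33 against -0.01 over all detected genes. At least 1.5-fold lower were 7 of 37, or 18.9%, where 1.01% of all detected genes were that much lower. None was at least 1.5-fold higher, a difference that 0.212% of all detected genes showed. At a smaller limit of 0.32 on the log2 scale, 19 of 37 were lower, or 51.4%, against 3.89% of all detected genes, and none was higher. The genes at least 1.5-fold lower were *Rrm2*, *Shmt1*, *Rrm1*, *Tyms*, *Psat1*, *Mthfd1* and *Tk1*. Nearest to the 1.5-fold limit were *Tk1* just past it, at a log2 ratio of -0.62, and *Umps* just short of it, at -0.54. As a measure of how far the reading varies, log2 ratios of 2 detected probe sets of 1 gene had a within-gene SD of 0.093. It was pooled over 550 genes. This spread covers neither the mice nor the sort, and 5 of the 37 genes lay closer to 0 than it. In RNA of a whole sorted pool, fewer cells of a kind and less RNA per cell cannot be told apart.

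**Figure D1:**
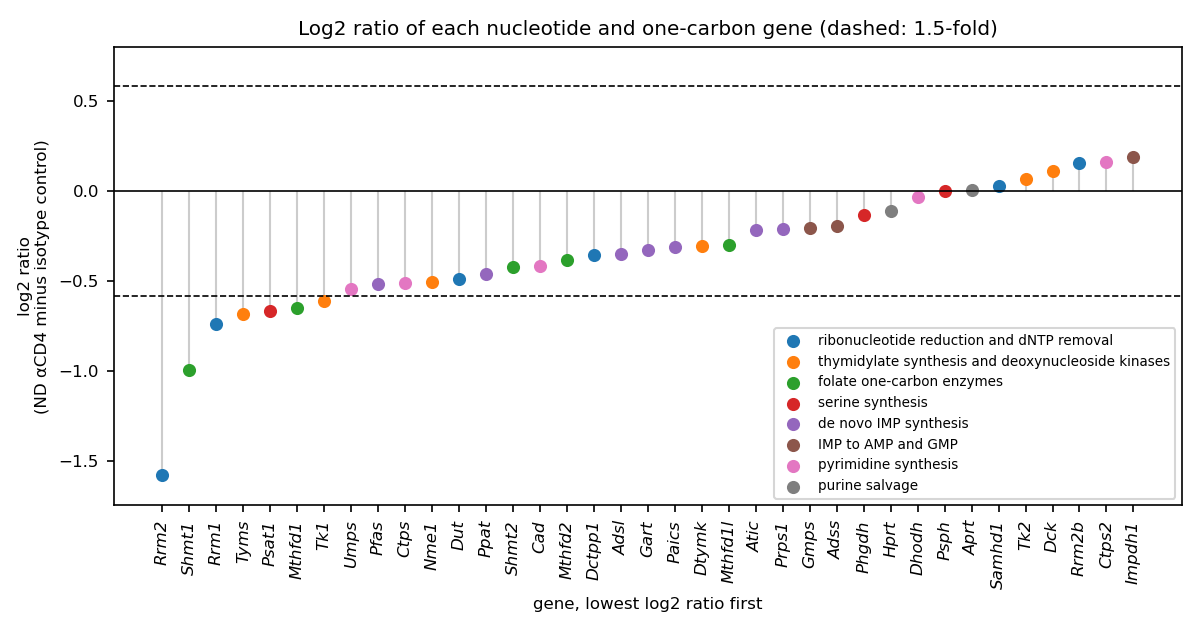
Log2 ratio (ND αCD4 minus isotype control, vertical axis) of each of the 37 measured nucleotide and one-carbon genes, ordered from the lowest, with colour for the role of the enzyme. The solid line is 0 and the dashed lines are 1.5-fold, and 7 genes lie below the lower dashed line while none lies above the upper one.

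Ribonucleotide reductase, the enzyme that commits nucleotides to DNA synthesis, showed the widest contrast. *Rrm2*, which encodes its S phase small subunit, had a signal of 8.50 in the ND αCD4 array, against 10.08 in the isotype control array. It was 2.99-fold lower, with the second lowest log2 ratio of all 13222 detected genes, behind that of *Dtl*, a ubiquitin ligase adaptor of S phase. *Rrm1*, the large subunit, was 1.67-fold lower, at 10.27 in the ND αCD4 array and 11.01 in the isotype control array. *Rrm2b*, the alternative small subunit that supplies dNTPs outside S phase and is known as a p53 target, had a log2 ratio of 0.16, with signals of 9.90 in the ND αCD4 array and 9.75 in the isotype control array. The small subunits therefore differed in log2 ratio by -1.74 (*Rrm2* minus *Rrm2b*), and they lay on opposite sides of 0.

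Enzymes that remove or police dNTPs did not all differ alike. *Dut*, which hydrolyses dUTP and provides the substrate of thymidylate synthase, had a log2 ratio of -0.49 (8.84 in the ND αCD4 array and 9.33 in the isotype control array). *Dctpp1*, a dCTP pyrophosphatase, had a log2 ratio of -0.36, at 9.46 in the ND αCD4 array and 9.82 in the isotype control array. *Samhd1*, which degrades dNTPs in cells that do not divide, was at 13.02 in the ND αCD4 array and 12.99 in the isotype control array, a log2 ratio of 0.02. Thus *Samhd1* did not share the lower signal of the reductase subunits *Rrm1* and *Rrm2*, whereas *Dut* and *Dctpp1* had negative log2 ratios short of 1.5-fold.

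Thymidylate is made either from deoxyuridylate by thymidylate synthase or from thymidine by thymidine kinase, and the cytosolic enzymes of both routes were lower. *Tyms*, the synthase gene, was 1.61-fold lower, with a signal of 8.57 in the ND αCD4 array and 9.26 in the isotype control array. *Tk1*, the cytosolic and S phase thymidine kinase, was 1.53-fold lower, at 8.61 in the ND αCD4 array and 9.23 in the isotype control array. It has a second probe set, which was also lower, at 7.99 in the ND αCD4 array and 8.90 in the isotype control array, a log2 ratio of -0.91. *Tk2*, its mitochondrial counterpart, which is made also in resting cells, was at 10.62 and 10.55 in the ND αCD4 and isotype control arrays, a log2 ratio of 0.07. *Dtymk*, which phosphorylates the product of both routes, had a log2 ratio of -0.31, and *Nme1*, a nucleoside diphosphate kinase, one of -0.51. *Dck*, the salvage kinase of deoxycytidine, was on the other side of 0 at 0.11, with signals of 10.62 in the ND αCD4 array and 10.51 in the isotype control array. *Dguok*, the mitochondrial deoxyguanosine kinase and not one of the 38 genes, was at -0.0031. In this role group *Tyms* and *Tk1* thus passed 1.5-fold, and the other 4 genes did not.

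**Figure D2:**
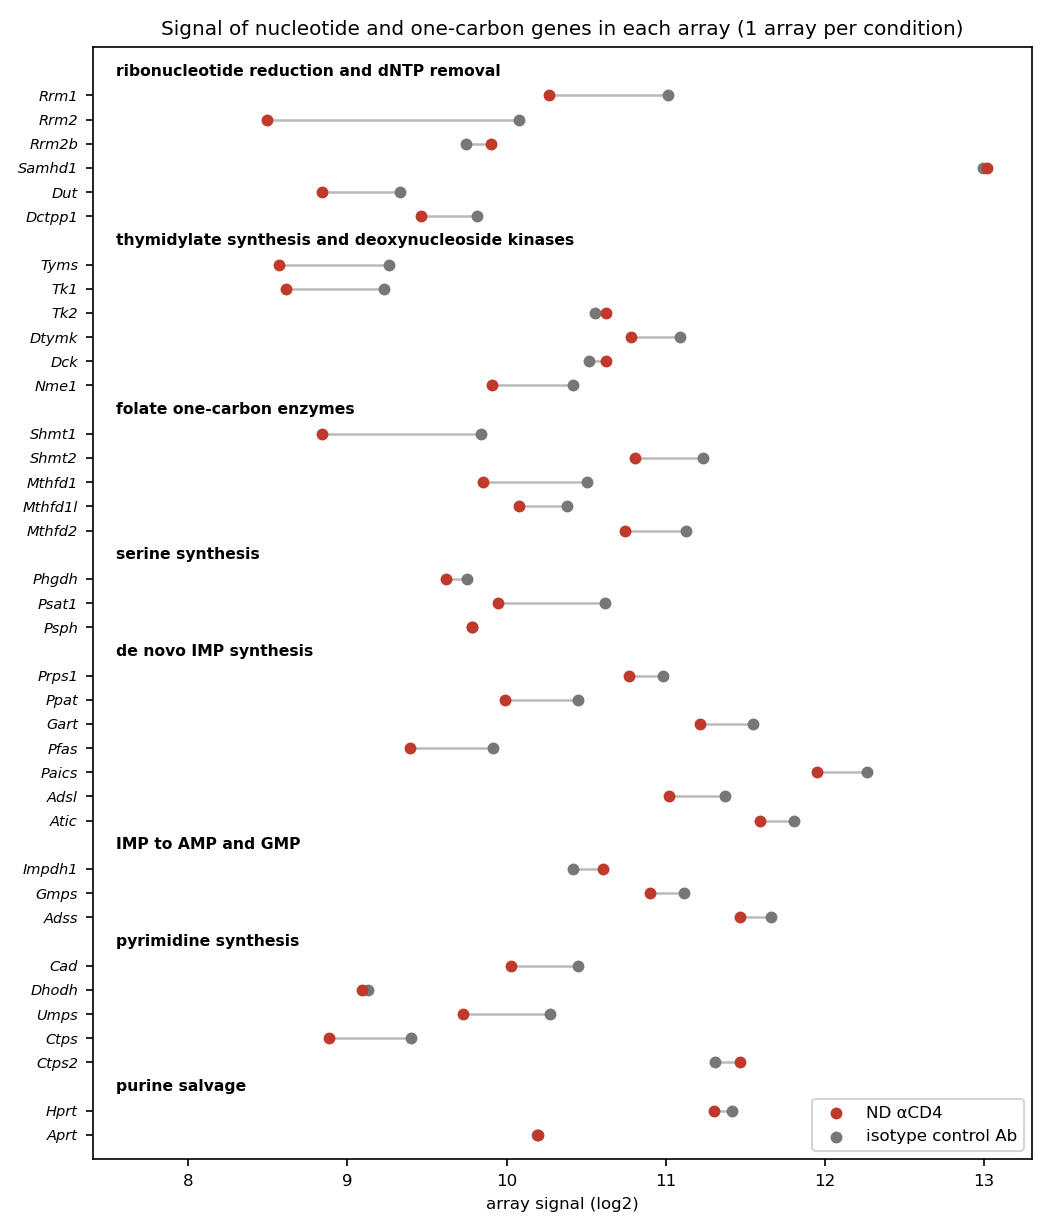
Array signal (log2, horizontal axis) of each of the 37 measured genes in the ND αCD4 array (red) and the isotype control array (gray), 1 array per condition, with genes grouped by role and a line drawn between the values of each gene. The longest lines are those of Rrm2, at 8.50 and 10.08, and Shmt1, at 8.84 and 9.84.

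All 5 folate enzymes that make and pass on one-carbon units had a log2 ratio below 0, and the cytosolic ones lay lowest. *Shmt1*, the cytosolic serine hydroxymethyltransferase, had a signal of 8.84 in the ND αCD4 array and 9.84 in the isotype control array, a log2 ratio of -0.997. *Mthfd1*, the cytosolic enzyme that interconverts the folate forms used for thymidylate and purines, was 1.57-fold lower, at 9.85 in the ND αCD4 array and 10.50 in the isotype control array. The mitochondrial enzymes differed by less. *Shmt2*, the mitochondrial hydroxymethyltransferase, was at 10.81 in the ND αCD4 array and 11.24 in the isotype control array, a log2 ratio of -0.43. *Mthfd2*, the mitochondrial dehydrogenase and cyclohydrolase, had a log2 ratio of -0.39 (10.74 and 11.13 in the ND αCD4 and isotype control arrays), and *Mthfd1l*, which releases formate from mitochondria, one of -0.30 (10.08 and 10.38). The difference in log2 ratio was -0.57 for *Shmt1* minus *Shmt2*, -0.35 for *Mthfd1* minus *Mthfd1l* and -0.27 for *Mthfd1* minus *Mthfd2*. These differences between genes have no error, since each rests on the same 2 arrays.

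Serine synthesis did not move as one. *Psat1*, the aminotransferase of its second step, was 1.59-fold lower, with 9.95 in the ND αCD4 array and 10.62 in the isotype control array. *Phgdh*, the dehydrogenase of the first step, had a log2 ratio of -0.13 (9.62 in the ND αCD4 array and 9.75 in the isotype control array). *Psph*, the phosphatase of the last step, was at 9.79 in both arrays. The pathway thus held 1 gene past 1.5-fold between neighbours that were close to their control level.

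**Figure D3:**
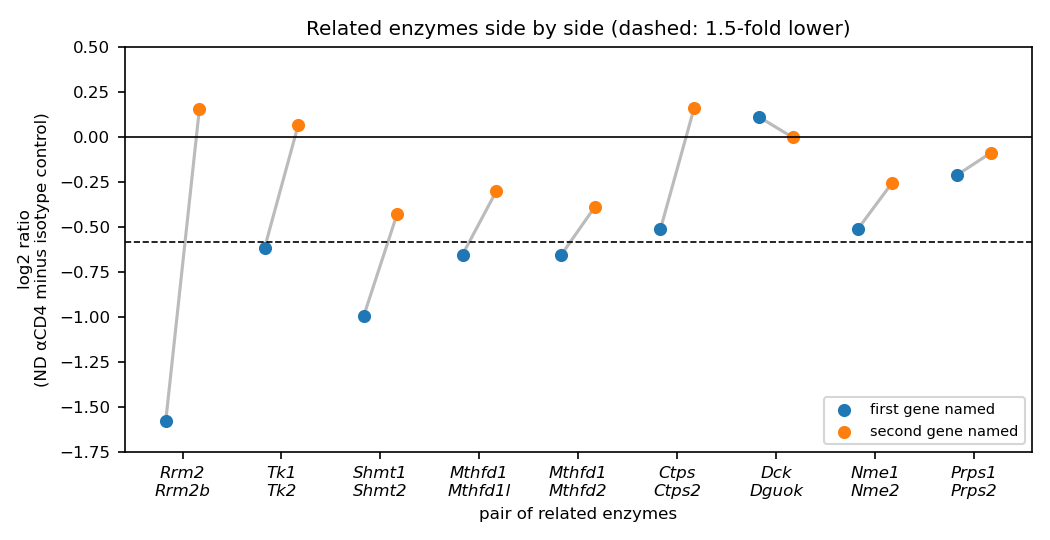
Log2 ratio (ND αCD4 minus isotype control, vertical axis) of related enzymes, the first gene named on the left of each pair and the second on the right, with the dashed line at 1.5-fold lower. Rrm2 and Rrm2b are farthest apart, at -1.58 and 0.16, followed by Tk1 with Tk2 and Ctps with Ctps2.

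The 7 measured enzymes on the way to IMP were all below 0 by small and similar amounts, and none reached 1.5-fold. Their log2 ratios ran from -0.52 to -0.21 with a median of -0.33. *Pfas*, the FGAR amidotransferase, was the lowest, at 9.40 in the ND αCD4 array and 9.91 in the isotype control array. *Ppat*, which catalyses the committed first step, was next at -0.46, with 9.99 in the ND αCD4 array and 10.45 in the isotype control array. *Adsl* was at -0.35, *Gart* at -0.33, *Paics* at -0.31 and *Atic*, which finishes the ring with a folate one-carbon unit, at -0.22. *Prps1*, which makes the ribose phosphate donor, had a log2 ratio of -0.21, and its relative *Prps2*, outside the 38 genes, one of -0.09. *Ppat* and *Paics* lie head to head on chromosome 5, and their annotated spans overlap (76913249 to 76951578 and 76951302 to 76967509, GRCm38.p6).

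Beyond IMP, purine genes were closer to 0. *Gmps*, the GMP synthetase, had a log2 ratio of -0.21 and *Adss*, the adenylosuccinate synthase, one of -0.19. *Impdh1*, one of the dehydrogenases that lead to GMP, had the highest log2 ratio of the 37 genes at 0.19, with signals of 10.61 in the ND αCD4 array and 10.42 in the isotype control array. Its relative *Impdh2*, the main form of proliferating lymphocytes, is the gene with no value here, so the step from IMP to GMP is described only in part. The purine salvage enzymes *Hprt* and *Aprt* were at -0.11 and 0.01.

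In pyrimidine synthesis, 4 of 5 genes had a log2 ratio below 0 and none reached 1.5-fold. *Umps*, which completes UMP, was at 9.73 in the ND αCD4 array and 10.27 in the isotype control array. *Cad*, the multifunctional enzyme of the first steps, had a log2 ratio of -0.42 (10.03 in the ND αCD4 array and 10.45 in the isotype control array). *Dhodh*, the mitochondrial enzyme between them, was at -0.03, with 9.09 in the ND αCD4 array and 9.13 in the isotype control array. *Dhodh* was thus within the SD between probe sets of 0, while *Cad* and *Umps* lay outside it and short of 1.5-fold. The CTP synthases, which make CTP from UTP, had log2 ratios on opposite sides of 0, neither of them past 1.5-fold. *Ctps*, the form that proliferating human lymphocytes depend on, had a log2 ratio of -0.51, at 8.88 in the ND αCD4 array and 9.40 in the isotype control array. *Ctps2* had one of 0.16, at 11.47 in the ND αCD4 array and 11.31 in the isotype control array.

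Promoter sequences are shown for 4 of the 7 genes that were at least 1.5-fold lower, picked because each holds a CCAAT box shortly before its start. Being picked for the motif, they do not tell the lower genes from others. *Mthfd1* holds one too but is not shown, because its window is not set on the RefSeq gene start. The sequences are the 120 bases before the start of the gene in RefSeq (GRCm38.p6), read 5′ to 3′ on the strand of the gene. CCAAT or its reverse complement ATTGG is in capitals.
Rrm1, chr7:102441575-102441694, plus strand: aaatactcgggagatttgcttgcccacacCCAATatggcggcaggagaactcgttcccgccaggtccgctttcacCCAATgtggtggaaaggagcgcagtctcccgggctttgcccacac
Rrm2, chr12:24708134-24708253, plus strand: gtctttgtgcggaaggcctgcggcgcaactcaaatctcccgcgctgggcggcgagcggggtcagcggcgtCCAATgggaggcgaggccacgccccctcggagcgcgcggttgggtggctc
Shmt1, chr11:60811266-60811385, minus strand: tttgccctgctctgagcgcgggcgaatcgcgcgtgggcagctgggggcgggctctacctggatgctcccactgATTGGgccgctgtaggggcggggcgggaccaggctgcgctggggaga
Psat1, chr19:15925060-15925179, minus strand: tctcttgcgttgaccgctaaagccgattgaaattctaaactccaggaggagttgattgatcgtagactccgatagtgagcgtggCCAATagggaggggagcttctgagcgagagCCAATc

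Over windows of 250 bases before to 50 after each start, on both strands and over every window a gene has in the table, CCAAT was found for 5 of the 7 genes at least 1.5-fold lower (those 4 and *Mthfd1*) and for 10 of the 27 other measured genes with a window. Over all 35 of the 38 genes with a window it was found for 45.7%, against 41.1% of 27025 genes in the table and 41.5% of the detected genes among them. The E-box CACGTG, which Myc and Max bind, was found for 6 of 35 genes, or 17.1%, against 8.09% of all genes and 11.3% of detected genes. In the *Tyms* window it lay 61 bases before the start that the window is set on, which differs from the RefSeq gene start. It occurred also in the windows of *Atic*, *Dtymk*, *Impdh2*, *Nme1* and *Paics*. The E2F motif, searched as TTTGGCGC, TTTCCCGC, TTTGCCGC and TTTCGCGC, was found for *Ppat* alone, or 2.86%, against 2.60% of all genes and 4.49% of detected genes. The cell cycle homology motif TTTGAA was found for 3 of 35 genes, or 8.57%, against 20.2% of all genes and 14.1% of detected genes. The amino acid response core TGATGNAA was found for *Prps1* alone, or 2.86%, against 4.51% of all genes and 2.69% of detected genes. A match is a description of the letters in the window, and where no match was found nothing follows about the factor. *Rrm2b*, *Dhodh* and *Pfas* had no window in the table.

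Genes of the same pathways outside the list of 38 differed much less. Of 91 such genes, 79 were measured and 63 detected, with a median log2 ratio of -0.09. At least 1.5-fold lower was 1 of the 63, or 1.59% against 1.01% of all detected genes, and none was that much higher. That gene was *Dctd*, which deaminates dCMP to supply deoxyuridylate for thymidylate synthesis, at 10.00 in the ND αCD4 array and 10.90 in the isotype control array, or 1.87-fold lower. Among 15 detected genes of the folate and methionine cycle, none reached 1.5-fold and the median was -0.09. The lowest were *Slc19a1*, the reduced folate carrier, at -0.44, and *Aldh1l1*, at -0.21. Among 25 detected genes of nucleoside transport, kinases and salvage, the lowest were the nucleoside transporter *Slc29a2* at -0.29 and *Mtap*, which salvages adenine, at -0.26. The glycine cleavage and choline-derived genes were mostly at the level of the receptor probe sets, with 3 of 8 detected, *Sardh* at -0.21 and *Dld* at -0.18 lying lowest. Among 20 detected genes of nucleotide breakdown and sanitation, *Dctd* was the only one past 1.5-fold, and the median was -0.08.

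**Figure D4:**
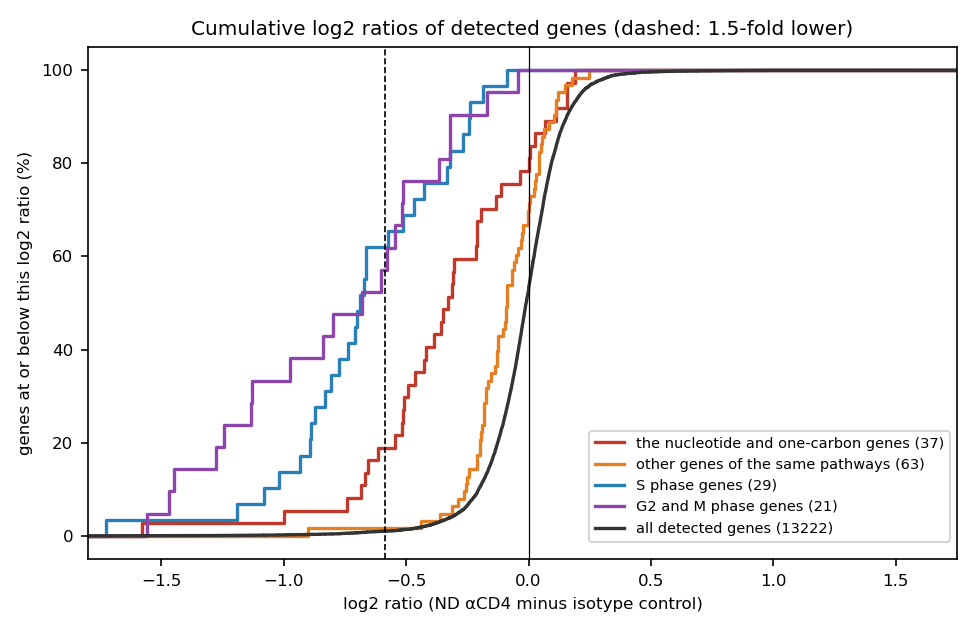
Share of genes (vertical axis, percent) at or below each log2 ratio (ND αCD4 minus isotype control, horizontal axis) for the 37 measured nucleotide and one-carbon genes, 63 other detected genes of the same pathways, 29 S phase genes, 21 G2 and M phase genes and all 13222 detected genes. At the dashed line of 1.5-fold lower, the nucleotide and one-carbon genes stand at 18.9%, between the S phase genes at 62.1% and all detected genes at 1.01%.

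Genes of cell division were lower in the same arrays. Of 29 S phase genes, all had a log2 ratio below 0 and 18 were at least 1.5-fold lower, or 62.1% against 1.01% of all detected genes. The count was 17 when values below the detection level were raised to it, and the median was -0.69. Of 21 detected G2 and M phase genes, all were below 0 and 12, or 57.1%, were at least 1.5-fold lower. Their count was 11 when raised in the same way, and their median was -0.68. The log2 ratios of the S phase genes ran from -1.72 to -0.09. The part that the share of dividing cells had in the lower enzyme genes was not tested. The CD8 T cell markers given above were both higher, with log2 ratios of 0.72 for *Cd8a* and 0.45 for *Cd8b1*, and among 5 measured NK cell markers *Klrd1* was detected in the ND αCD4 array and no other was detected. Of 7 measured B cell markers, 6 had a log2 ratio above 0, where 6170 of all 13222 detected genes did. The median log2 ratio of the B cell markers was 0.06, smaller than the SD between probe sets. Their mean signal was 8.26 in the ND αCD4 array and 8.17 in the isotype control array. The cells were sorted as CD3+CD4+, and the part that cells of these other types had in the enzyme gene signals was not tested.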

How the data were processed

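RNA of 1 pool of sorted PLN CD3+CD4+ T cells per condition was measured on Affymetrix mouse gene ST arrays. The log2 values deposited by the authors give each probe set 1 signal per array. Affymetrix Expression Console is named in the submitters' processing notes. Its version, background correction and normalization were not given in the sources used here, and the log2 scale was inferred from the range of 2.52 to 14.7. Of 35557 probe sets, 21789 have 1 gene symbol in the platform annotation and were used, 1621 with several and 12147 with none were left out. All 37 measured members kept their symbol in the RefSeq table (GRCm38.p6). For each gene the probe set of highest mean was kept, and the log2 ratio is ND αCD4 minus isotype control. A gene was counted as lower or higher from 1.5-fold upward. Detection used 1210 receptor probe sets. There being no replicates, no p value was computed, and precision is limited by the number of arrays. The genes, gene lists, motifs and limits were chosen with earlier results of these data known. Text names all members, genes of other lists past 1.5-fold or else the 2 largest in size, and a few relatives of members (*Dguok*, *Prps2* and *Nme2*). *Dtl*, *Cd4*, *Cd8a*, *Cd8b1*, *Klrd1*, *E2f2*, *E2f3*, *Myc* and *Atf4* were named after their values were seen. Promoters came from the RefSeq table. Alternatives changed the scaling, detection level, probe set rule and size limit. The calculation was tested on simulated data. Calculations used pandas 2.3.3 and numpy 2.4.6 in Python 3.11.15, lowess came from statsmodels 0.14.6, and matplotlib 3.10.9 drew the figures.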

Additional observations from a re-analysis of the deposited data

How the results depend on the processing

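The count of 7 genes at least 1.5-fold lower and the count of 0 higher were the same under median centring, lowess correction (fraction 0.3), quantile normalization, flooring at the detection level, the mean or the lowest detected probe set, detection in both arrays, no filter, and a 99th percentile detection level, and the 7 genes were the same ones each time. By construction of the rule, a 2-fold limit left 1 gene (*Rrm2*), where 0.189% of all detected genes were that much lower. *Shmt1*, at a log2 ratio of -0.997, fell just short of that limit. A limit of 0.32 on the log2 scale gave 19 genes, against 3.89% of all detected genes. The median log2 ratio ran from -0.33 to -0.31. Of 333 log2 ratios of single genes recomputed, none changed sign and none crossed the 1.5-fold limit. Many could not change. Flooring, no filter and detection in both arrays leave ratios and counts as they were, because all 37 genes exceeded the level in both arrays. A 99th percentile level could drop a gene but not alter its ratio. The probe set rules could alter only *Tk1*, the only gene here with a second probe set. Under the scaling settings, which could move every gene, the largest shift was 0.030. The ratios that moved by more than the SD between probe sets were the 2 of *Tk1*, at -0.76 for the mean of its probe sets and -0.91 for the lower one. With CCAAT searched only before the start, 15 genes held it rather than 16. Probe sequences were not used here, so signal shared between close relatives such as *Nme1* and *Nme2* was not tested.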

Other observations

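Regulators known for these enzyme genes differed unevenly. Of 20 detected genes of the E2F, Rb, Myc, Max, Atf4 and p53 list, 2 were at least 1.5-fold lower and none higher. The share lower was 10% against 1.01% of all detected genes, and the median log2 ratio was -0.06. *E2f1*, an activator of S phase genes, had a signal of 8.40 in the ND αCD4 array and 9.39 in the isotype control array, a log2 ratio of -0.99. *E2f8*, a repressor made late in S phase, did not exceed the detection level in the ND αCD4 array (7.29) and was at 8.23 in the isotype control array, which is at least 1.59-fold lower against the detection level. *E2f3* was at -0.55, whereas *E2f2* was at 0.14. *Myc* was at -0.31 and *Atf4*, which drives serine synthesis genes, at -0.03. The arrays read RNA only, so the activity of these regulators was not tested.

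Amino acid response genes outside the 38 lay on both sides of 0. Of 16 detected, 7 were below 0 and 9 above, with a median log2 ratio of 0.01. At least 1.5-fold lower were 2, *Asns* and *Ddit4*, or 12.5% against 1.01% of all detected genes. *Asns*, the asparagine synthetase, was at 8.00 in the ND αCD4 array and 8.66 in the isotype control array. *Ddit4*, an inhibitor of mTORC1, was at 11.06 in the ND αCD4 array and 11.77 in the isotype control array. Of 12 detected p53 targets other than *Rrm2b*, none reached 1.5-fold, and the median was -0.02. The farthest from 0 were *Pmaip1* and *Sesn1*, both at 0.20, beside 0.16 for *Rrm2b*.

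The S phase genes at least 1.5-fold lower were *Ccne2*, *Cdc45*, *Cdc6*, *Dtl*, *Fen1*, *Lig1*, *Mcm10*, *Mcm2*, *Mcm3*, *Mcm5*, *Mcm6*, *Mcm7*, *Pola1*, *Pole*, *Prim1*, *Rfc3*, *Rfc4* and *Uhrf1*. The G2 and M phase genes were *Aurkb*, *Birc5*, *Bub1*, *Bub1b*, *Ccna2*, *Ccnb2*, *Cdk1*, *Kif11*, *Mki67*, *Nusap1*, *Top2a* and *Tpx2*. *Ccne2*, *Birc5*, *Bub1* and *Tpx2* did not exceed the detection level in the ND αCD4 array. With that value raised to the level, *Ccne2* and *Birc5* were 1.17-fold and 1.47-fold lower, short of the limit. *Bub1* and *Tpx2* were then 1.64-fold and 1.63-fold lower, still past it.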
